A study of Mus musculus with 12 samples.

Results

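The 10 genes described here are transcripts of late neutrophil development: Ltf, Lcn2, Camp, Ngp, S100a8, S100a9, Mmp8, Mmp9, Cxcr2 and Retnlg. They were taken by symbol from the 24310 features of each library, and all 10 were found. RNA sequencing was carried out on 12 libraries of CMM cells, which the labels give as an acute myeloid leukaemia line of the mouse and the series title as an inv(16) leukaemia. GFP-marked CMM cells were engrafted intravenously into C57BL/6 mice, and treatment started once GFP positive cells made up about 1% in blood. Mice were given 3 intravenous injections on alternate days of PBS (4 libraries), CpG-scrODN (4 libraries) or CpG-STAT3dODN (4 libraries), and spleens were taken 1 day after the last one. The study asked how STAT3 inhibition together with TLR9 stimulation bears on differentiation of the leukaemia cells.

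CpG oligonucleotides are ligands of TLR9, a receptor of endosomes. CpG-STAT3dODN joins such a ligand to a decoy for the transcription factor STAT3, and CpG-scrODN carries a scrambled sequence in place of the decoy. All 12 libraries shared the leukaemia line, the host strain, the schedule and the selection of c-Kit positive spleen cells. The design text adds a sort for GFP, which the extraction protocol does not list. The labels give no age, no conditioning of the hosts and no word on how many mice made up a library, and the p-values below therefore cover the spread among these libraries, part or all of which may be technical.

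Neutrophils make their granules in sequence. Primary granules, filled with enzymes such as myeloperoxidase, form in promyelocytes. Secondary granules follow in myelocytes and metamyelocytes, gelatinase granules in band cells, and surface receptors for tissue entry come last. In mice, the transcription factor C/EBP epsilon, encoded by Cebpe, is required for secondary granule proteins. The fusion protein of inv(16) leukaemia holds myeloid cells at an immature stage, and late granule transcripts are markers of passage beyond it.

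The group word in every column header differed from the sample label. The header word was DEC for the label PBS, PBS for the label CpG-scrODN and SCR for the label CpG-STAT3dODN. Groups below follow the labels, and since label and header name different groups, a difference is given as one of labels and not as an effect of an agent. Estimated depth was 31440000 to 36190000 reads a library, so that an RPKM (reads per kilobase, scaled to library size) of 1 stood for at least 31.4 reads per kilobase. No pair of libraries held identical values, and libraries of 1 group correlated at 0.928 to 0.997 on the log2 scale. Replicate 4 labelled PBS and replicate 4 labelled CpG-STAT3dODN stood apart by Fos, an immediate-early transcription factor. Fos was at 12.9 and 5.91 RPKM in them, against 486 to 1156 in the other 10 libraries. All 3 libraries numbered 4 stood apart by Hspa1a and Ier3, picked after the values were seen. Hspa1a was at 1.87 (PBS), 2.38 (CpG-scrODN) and 2.60 RPKM (CpG-STAT3dODN), against 31.6 to 520 in replicates 1 to 3. Ier3 was at 89.8, 98.1 and 130 RPKM in the same order, against 15.1 to 35.6. Kit, the receptor used for enrichment, lay between 10.5 and 37.8 RPKM in libraries labelled PBS. It lay between 28.3 and 40.5 RPKM in those labelled CpG-scrODN and between 25.7 and 51.1 in those labelled CpG-STAT3dODN. Of 8 genes listed as a check of immature leukaemia cells, 2 (Myh11 and Hoxa9) were under 1 RPKM in every library. Flt3 ran from 0.493 to 2.05 RPKM and was under 1 in all libraries labelled CpG-scrODN. Cd34 lay between 5.15 and 43.1 RPKM and Gata2 between 17.8 and 54.3. Cbfb lay between 35.5 and 50.6 RPKM and Meis1 between 2.59 and 9.73.

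The late neutrophil genes were abundant in these c-Kit enriched cells. Other secondary granule genes were present as well, with 13 of 13 listed genes found and a sum of 437 to 1353 RPKM. For the 10 genes the summed level ran from 568 to 5514 RPKM, or 0.162% to 1.46% of all RPKM in a library. S100a8 and S100a9, the 2 chains of calprotectin, supplied 68.7% to 76.1% of that sum in each library. By mean level over 12 libraries, the order was S100a9 (954 RPKM), S100a8 (906), Ngp (297), Lcn2 (166), Camp (165), Ltf (75.5), Retnlg (43.5), Mmp8 (17.3), Mmp9 (8.28) and Cxcr2 (2.33). Neighbours in this order differed in the same direction in all 12 libraries for S100a8 over Ngp, Camp over Ltf, Retnlg over Mmp8, Mmp8 over Mmp9 and Mmp9 over Cxcr2. Ngp exceeded Lcn2 and Ltf exceeded Retnlg in 11 of 12. S100a9 exceeded S100a8, and Lcn2 exceeded Camp, in 8 of 12 each, so these 2 pairs could not be ordered beyond their spread. S100a8 was as high as rank 10 of all features in 1 library and as low as rank 210 in another.

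The secondary granule genes differed widely between libraries of 1 group. Ltf encodes lactoferrin, an iron-binding protein, and was measured at 86.4, 154, 119 and 43.9 RPKM in replicates 1 to 4 labelled PBS. It was at 69.5, 59.0, 31.6 and 9.40 RPKM in those labelled CpG-scrODN and at 64.7, 81.3, 134 and 52.8 RPKM in those labelled CpG-STAT3dODN. Replicate 4 was the lowest library in each group, and the ranges of the 3 groups overlapped. Camp encodes the precursor of the antimicrobial peptide cathelicidin. Its levels were 163, 382, 247 and 158 RPKM in replicates 1 to 4 labelled PBS, 144, 119, 66.7 and 17.7 in those labelled CpG-scrODN and 131, 151, 246 and 151 in those labelled CpG-STAT3dODN. Every library labelled CpG-scrODN lay below every library labelled PBS, and replicate 4 labelled CpG-scrODN was far below the rest of its group.

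Ngp encodes neutrophilic granule protein, a secondary granule protein of the mouse related to cystatins. RPKM values were 279.5, 641, 469 and 231 in replicates 1 to 4 labelled PBS, 262, 207, 119 and 38.4 in those labelled CpG-scrODN and 255, 298, 492 and 268 in those labelled CpG-STAT3dODN. The highest library labelled CpG-scrODN overlapped the range of those labelled PBS. Lcn2 encodes lipocalin 2, which binds bacterial siderophores. It held 147, 333, 279 and 74.3 RPKM in replicates 1 to 4 labelled PBS, 172, 143, 73.3 and 39.3 in those labelled CpG-scrODN and 160.4, 178, 291 and 98.3 in those labelled CpG-STAT3dODN, and all 3 groups overlapped.

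The calgranulins S100a8 and S100a9 encode calcium-binding proteins of the neutrophil cytosol that pair with each other. S100a8 was at 777, 1932, 1689 and 589 RPKM in replicates 1 to 4 labelled PBS, at 807, 695, 359 and 219 in those labelled CpG-scrODN and at 818, 876, 1539.7 and 576 in those labelled CpG-STAT3dODN. S100a9 was at 856, 1929, 1671 and 682 RPKM in the libraries labelled PBS, at 866, 737, 348 and 213 in those labelled CpG-scrODN and at 819, 882, 1650.4 and 792 in those labelled CpG-STAT3dODN. For both genes, replicates 2 and 3 labelled PBS and replicate 3 labelled CpG-STAT3dODN stood above all other libraries, and the groups overlapped.

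The other 4 genes were Mmp8, Mmp9, Cxcr2 and Retnlg. Mmp8, neutrophil collagenase, was at 9.16, 28.7, 28.9 and 4.99 RPKM in replicates 1 to 4 labelled PBS, 17.7, 21.9, 9.86 and 9.12 in those labelled CpG-scrODN and 22.2, 19.8, 29.5 and 5.27 in those labelled CpG-STAT3dODN. Mmp9, the gelatinase that names the gelatinase granules, was at 8.58, 19.8, 15.1 and 1.50 RPKM in the PBS-labelled libraries, 8.53, 6.88, 2.79 and 1.85 in those labelled CpG-scrODN and 7.89, 9.96, 14.3 and 2.20 in those labelled CpG-STAT3dODN. For both genes, replicate 4 labelled PBS was the lowest of all 12 libraries, and the groups overlapped. Cxcr2 encodes the chemokine receptor through which mature neutrophils leave the marrow and enter tissue, and was at 2.04, 3.02, 3.86 and 0.821 RPKM in the PBS-labelled libraries, 2.31, 2.44, 1.33 and 1.34 in those labelled CpG-scrODN and 3.10, 2.29, 4.18 and 1.19 in those labelled CpG-STAT3dODN. Retnlg, which encodes resistin-like gamma and marks mature neutrophils in the mouse, was at 44.9, 90.7, 105 and 9.73 RPKM in the PBS-labelled libraries, 38.3, 36.5, 16.7 and 18.8 in those labelled CpG-scrODN and 35.8, 41.9, 69.2 and 14.3 in those labelled CpG-STAT3dODN. Replicate 4 labelled PBS was again the lowest of all libraries for both, and no pair of groups was separated.

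**Figure D1:**
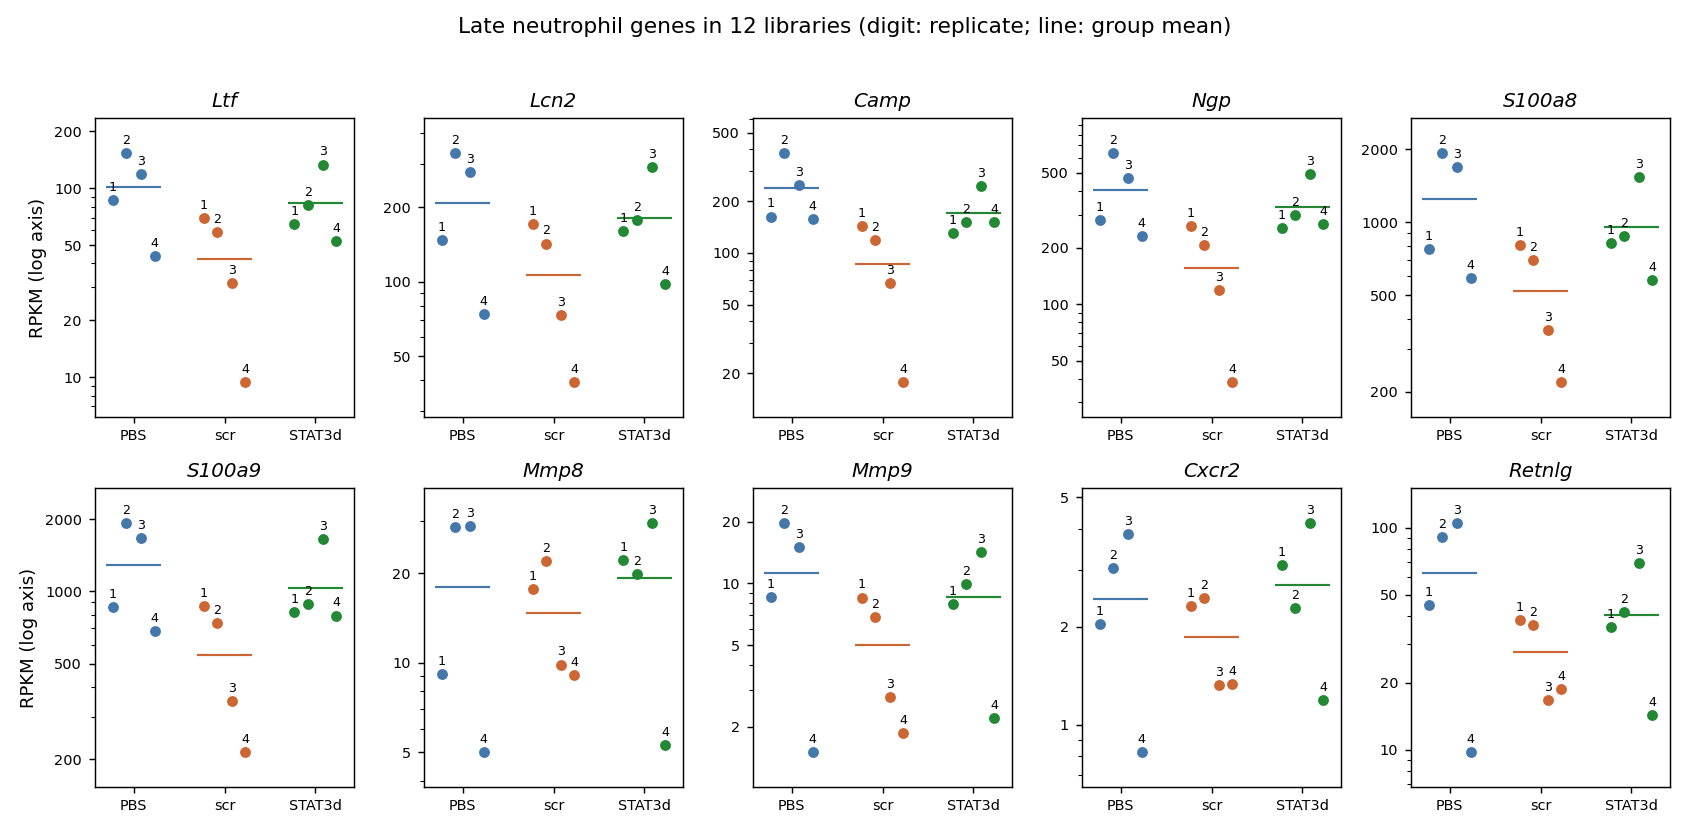
Level of each of the 10 genes in RPKM (log axis) in the 12 libraries, by labelled group (scr, CpG-scrODN; STAT3d, CpG-STAT3dODN). Points are libraries with their replicate number and lines are arithmetic group means; replicate 4 labelled PBS was lowest in its group for all 10 genes, and replicate 3 labelled CpG-STAT3dODN was highest in its group for all 10.

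Of the 10 genes, 4 lie on mouse chromosome 9 (build mm10, the authors' build, with gene positions from RefSeq). Mmp8 spans chr9:7558429-7568486, Camp chr9:109847377-109849456, Ngp chr9:110419808-110423012 and Ltf chr9:111019292-111042766, so that 570 kb separate Camp from Ngp and 596 kb separate Ngp from Ltf. S100a8 (chr3:90669071-90670034) and S100a9 (chr3:90692630-90695721) lie 22.6 kb apart. The others are Lcn2 at chr2:32384637-32387739, Mmp9 at chr2:164940326-164955850, Cxcr2 at chr1:74153994-74161246 and Retnlg at chr16:48872608-48874498, and all 10 are annotated as protein coding.

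Promoter windows from RefSeq (GRCm38.p6, of which mm10 is the browser name) run from 250 bases before to 50 bases after the gene's start, 300 bases in all, and were matched for 9 of the 10 genes. They are shown for Camp, Ngp and Ltf, whose levels moved closely together, and for Mmp8 and Retnlg, whose levels parted from them in the replicate 4 libraries. Each is printed 5′ to 3′ on the strand of the gene, and capitals mark TTGCNNAA on either strand, a motif like that bound by C/EBP factors. Bases after the start were also sought in annotated transcripts of the same gene. No match was found for Mmp8, Retnlg and S100a8, so their strand and start rest on RefSeq alone. The windows are chr9:109849407-109849706 (minus strand), chr9:110419558-110419857, chr9:111019042-111019341, chr9:7558179-7558478 and chr16:48872358-48872657 (plus strand).
Camp: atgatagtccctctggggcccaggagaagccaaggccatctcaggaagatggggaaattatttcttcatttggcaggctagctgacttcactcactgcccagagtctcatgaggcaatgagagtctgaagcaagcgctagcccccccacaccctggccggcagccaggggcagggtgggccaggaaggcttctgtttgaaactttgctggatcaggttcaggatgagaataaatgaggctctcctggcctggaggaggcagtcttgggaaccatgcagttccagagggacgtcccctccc
Ngp: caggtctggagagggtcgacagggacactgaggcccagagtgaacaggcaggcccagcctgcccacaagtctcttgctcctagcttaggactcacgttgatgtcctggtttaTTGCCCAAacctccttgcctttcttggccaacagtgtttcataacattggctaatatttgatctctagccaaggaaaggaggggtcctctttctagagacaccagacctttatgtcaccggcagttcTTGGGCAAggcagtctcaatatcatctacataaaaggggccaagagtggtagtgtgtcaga
Ltf: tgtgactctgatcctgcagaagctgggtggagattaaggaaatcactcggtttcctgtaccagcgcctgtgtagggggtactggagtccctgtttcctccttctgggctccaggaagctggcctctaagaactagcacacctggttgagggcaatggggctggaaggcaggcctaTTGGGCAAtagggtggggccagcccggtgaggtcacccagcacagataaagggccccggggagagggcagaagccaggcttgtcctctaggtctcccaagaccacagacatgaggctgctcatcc
Mmp8: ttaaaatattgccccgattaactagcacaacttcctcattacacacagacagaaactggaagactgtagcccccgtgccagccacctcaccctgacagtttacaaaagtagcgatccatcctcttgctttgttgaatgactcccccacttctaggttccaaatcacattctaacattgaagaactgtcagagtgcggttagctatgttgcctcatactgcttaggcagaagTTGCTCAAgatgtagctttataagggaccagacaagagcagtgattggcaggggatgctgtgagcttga
Retnlg: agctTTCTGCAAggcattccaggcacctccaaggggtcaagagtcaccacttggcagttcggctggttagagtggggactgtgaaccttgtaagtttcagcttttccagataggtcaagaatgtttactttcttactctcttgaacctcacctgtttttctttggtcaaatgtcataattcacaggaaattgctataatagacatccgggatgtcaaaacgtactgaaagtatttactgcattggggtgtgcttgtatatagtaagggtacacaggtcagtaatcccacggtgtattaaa

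The TTGCNNAA motif was found in 6 of the 9 windows (Lcn2, S100a9, Mmp8, Ngp, Ltf and Retnlg), against 10.8% of 32851 promoter windows of the same length. Ngp held 2 matches, which began at positions -138 and -11 from the gene's start. Single matches began at -75 in Ltf, -19 in Mmp8, -216 in Lcn2, -236 in S100a9 and -246 in Retnlg. The positions in Mmp8 and Retnlg rest on windows without a transcript match. A looser form, TTNNGNAA on either strand, overlaps the first motif and was found in 7 of 9 windows against 40.7% of all. A PU.1-like motif, GAGGAAG on either strand, was found in 3 (Lcn2, S100a8 and Mmp8) against 13.6%. The STAT motif TTCNNNGAA was in 0 of 9 against 8.30%, and the GATA motif AGATAAG on either strand in 0 of 9 against 3.04%. These matches describe letters in the windows, since binding was not measured.

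Between libraries labelled CpG-scrODN and those labelled PBS, no late neutrophil gene passed the test (0 of 10, limma on log2(RPKM + 1), two-sided, Benjamini-Hochberg adjusted p under 0.05 over 10886 genes), where 4.15% of tested genes did. All 10 mean differences were negative, with a median of -1.11 on the log2 scale against -0.05 over all tested genes. At an unadjusted p under 0.05, 5 of the 10 were lower (Camp, Ngp, S100a9, S100a8 and Ltf), against 10.9% of tested genes. Several of the 10 rose and fell together over the same libraries, so counts of them, here and below, are not counts of independent results. In these bulk libraries, fewer cells of a type and less RNA per cell cannot be told apart.

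The largest difference among the 10 was that of Camp, 86.8 ± 56.1 RPKM in libraries labelled CpG-scrODN against 237 ± 105 in those labelled PBS (SD, n = 4 each), or -1.70 ± 0.55 (SE) on the log2 scale with a 95% interval of -2.90 to -0.51 and a limma adjusted p of 0.133. It was the only one of the 10 whose groups did not overlap, where 10% of tested genes were separated in that direction. Ngp differed by -1.56 ± 0.53 (limma adjusted p = 0.155), S100a9 by -1.33 ± 0.47 (0.176), S100a8 by -1.27 ± 0.48 (0.220) and Ltf by -1.42 ± 0.57 (0.246). The differences of Lcn2 (-0.95), Mmp9 (-0.82) and Retnlg (-0.80) had limma adjusted p-values of 0.432, 0.586 and 0.594, and those of Cxcr2 (-0.20) and Mmp8 (-0.05) had 0.783 and 0.973. The interval for Mmp8, -1.34 to 1.24, covers changes of either sign. So do those for Lcn2 (-2.14 to 0.24), Mmp9 (-2.30 to 0.65), Retnlg (-2.27 to 0.67) and Cxcr2 (-0.90 to 0.50).

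Leaving out both libraries of low Fos, 1 of 10 genes was called: Retnlg differed by -1.51 on the log2 scale (limma adjusted p = 0.0417), against -0.80 with all libraries. In that fit 6.3% of tested genes were called (686 genes). Without either of the 2 alone none of the 10 was called. The difference of Camp was -1.08 without replicate 4 labelled CpG-scrODN (limma adjusted p = 0.189). Over all tested genes, 452 were called (12 higher and 440 lower), and 279 without replicate 3 labelled CpG-scrODN. Quantile scaling gave 75 higher and 318 lower.

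Between libraries labelled CpG-STAT3dODN and those labelled PBS, 0 of 10 genes passed the same limma test, where 1.86% of tested genes did, and 0 had an unadjusted p under 0.05, where 9.4% did. Differences ran from -0.43 (Camp) to 0.19 (Mmp8) on the log2 scale, with limma adjusted p-values of 0.9998 throughout. Their median was -0.23, against -0.01 over all tested genes. For Camp the 95% interval was -1.62 to 0.76 and for S100a9 it was -1.27 to 0.77, so that changes of more than 2-fold in the lower direction lie within both. The count of all genes called was 202, falling to 131 without replicate 1 labelled PBS and 121 without replicate 2 labelled CpG-STAT3dODN.

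Between libraries labelled CpG-STAT3dODN and those labelled CpG-scrODN, limma called 0 of 10 and also 0% of all tested genes. At an unadjusted p under 0.05, 3 of the 10 were higher (Ngp, Camp and S100a9), against 2.14% of tested genes. Ngp was at 328 ± 111 RPKM in libraries labelled CpG-STAT3dODN and at 157 ± 98.3 in those labelled CpG-scrODN (SD, n = 4 each), a difference of 1.32 ± 0.53 (SE) on the log2 scale with a limma adjusted p of 0.960. All 10 mean differences were positive, from 0.24 (Mmp8) to 1.32 (Ngp), with a median of 0.92 against 0.03 over all tested genes. The 3 comparisons share groups, so their directions are not independent of each other.

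**Figure D2:**
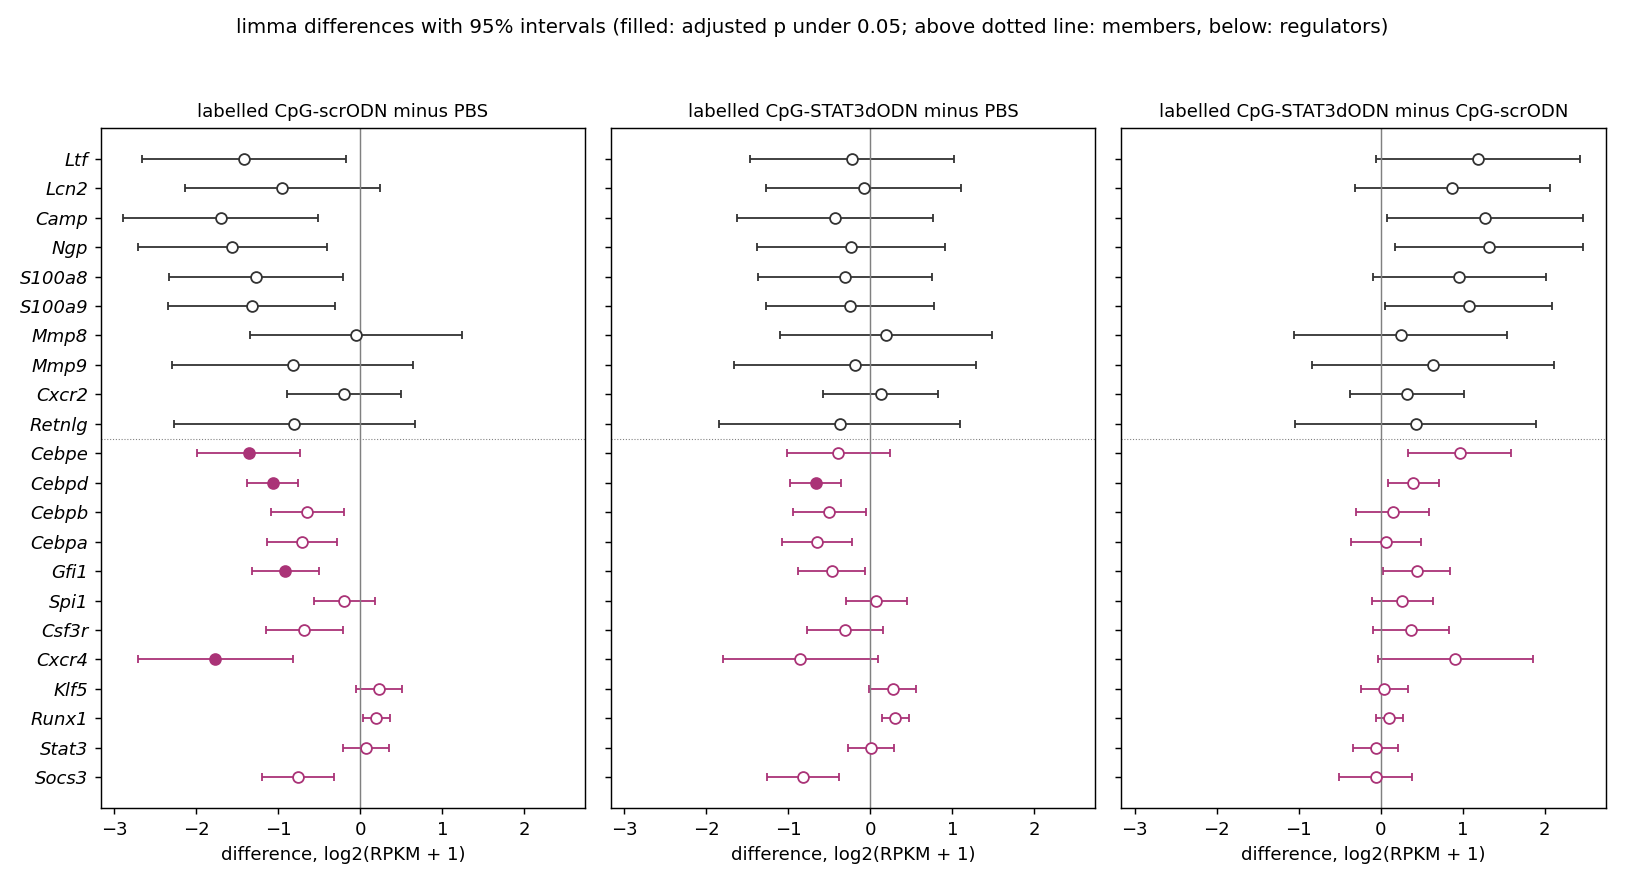
Differences between labelled groups on the log2(RPKM + 1) scale for the 10 late neutrophil genes and 12 regulators of granulopoiesis, with limma 95% intervals (n = 4 libraries per group). Filled points passed an adjusted p under 0.05: none of the 10 genes did, while Cebpe, Cebpd, Gfi1 and Cxcr4 did in the left panel and Cebpd in the middle one.

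The spread between replicates of the 10 genes was wide. The residual SD within groups on the log2 scale ran from 0.50 (Cxcr2) to 1.08 (Mmp9 and Retnlg), against a median of 0.19 over the 10886 tested genes, and 92.9% to 99.4% of tested genes had a lower one. In the group labelled CpG-scrODN, Camp spanned an 8.11-fold range from its lowest to its highest library and Ltf a 7.40-fold range. In the group labelled PBS the widest ranges were those of Mmp9 (13.2-fold) and Retnlg (10.8-fold). Without all 3 libraries numbered 4, the residual SDs of the 10 genes were 0.33 to 0.63, and 0 of 10 were called in each comparison. In that fit 665 of the 10886 tested genes were called between CpG-scrODN and PBS. Between CpG-STAT3dODN and PBS 392 were called, and between CpG-STAT3dODN and CpG-scrODN 0.

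**Figure D3:**
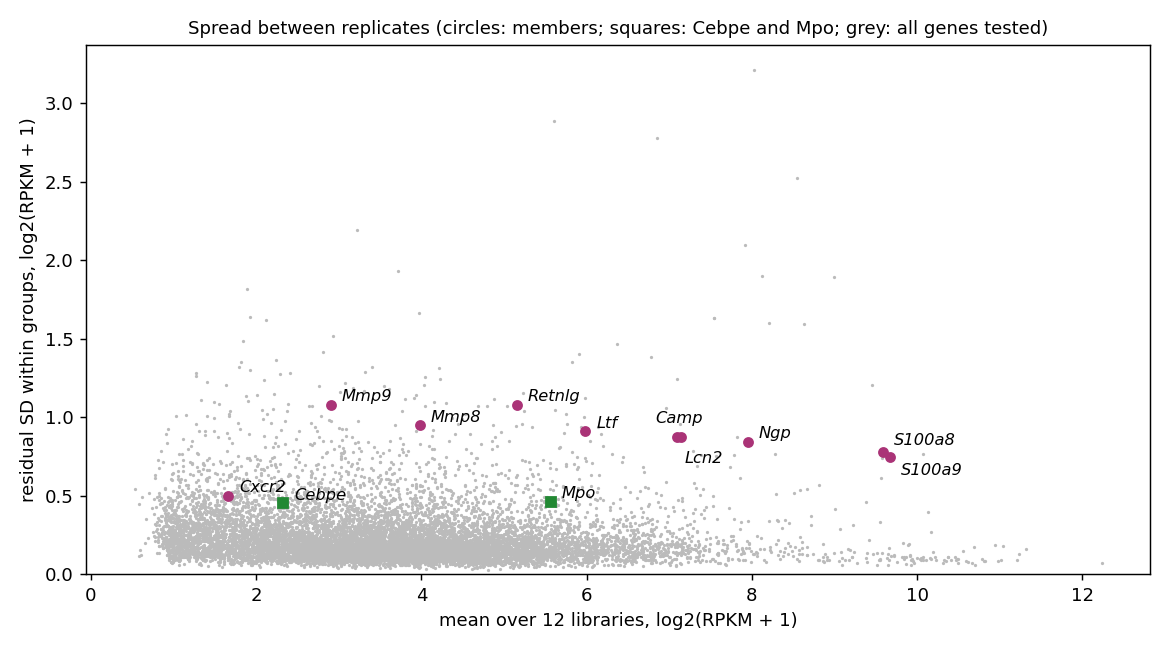
Residual SD within groups against mean level over 12 libraries, both on the log2(RPKM + 1) scale, for all 10886 tested genes (grey), the 10 late neutrophil genes (circles) and Cebpe and Mpo (squares). The circles lie at 0.50 to 1.08, above the median of 0.19.

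The same libraries were extreme for most of the genes. Replicate 4 was the lowest library of its group for 10 of 10 genes in the group labelled PBS, 8 of 10 in that labelled CpG-scrODN and 8 of 10 in that labelled CpG-STAT3dODN. The highest was replicate 3 for all 10 genes in the group labelled CpG-STAT3dODN and replicate 1 for 8 genes in that labelled CpG-scrODN. In the group labelled PBS it was replicate 2 for 7 genes and replicate 3 for 3. The labels do not say whether a shared number links libraries of different groups. Across the 10886 tested genes, which are not independent replicates, deviations from the group means correlated at 0.817 between PBS 4 and CpG-STAT3dODN 4, the libraries of low Fos. They correlated at 0.193 between PBS 4 and CpG-scrODN 4 and at 0.151 between CpG-scrODN 4 and CpG-STAT3dODN 4.

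Proportions between the genes were steadier than their levels in replicates 1 to 3 of all groups and changed in the libraries numbered 4. These ratios were chosen after the values were seen and are descriptions without a test. S100a8 over S100a9 stayed within 0.727 to 1.03 in all 12 libraries, and Camp over Ngp within 0.461 to 0.686. Camp over Retnlg lay between 2.34 and 4.22 in the 9 libraries numbered 1 to 3, but was 16.3 in replicate 4 labelled PBS, 10.6 in replicate 4 labelled CpG-STAT3dODN and 0.941 in replicate 4 labelled CpG-scrODN. Ltf over Mmp9 was 7.81 to 11.3 in the same 9 libraries and 29.4, 24.0 and 5.07 in those 3. The 2 libraries of low Fos thus held little Retnlg and Mmp9 for their Camp and Ltf, while replicate 4 labelled CpG-scrODN held little Camp and Ltf for its Retnlg and Mmp9. Mpo over Camp, a primary over a secondary granule gene, was 0.144 to 0.579 in 11 libraries and 1.69 in replicate 4 labelled CpG-scrODN. Whether low Fos and these proportions have a common source was not tested.

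**Figure D4:**
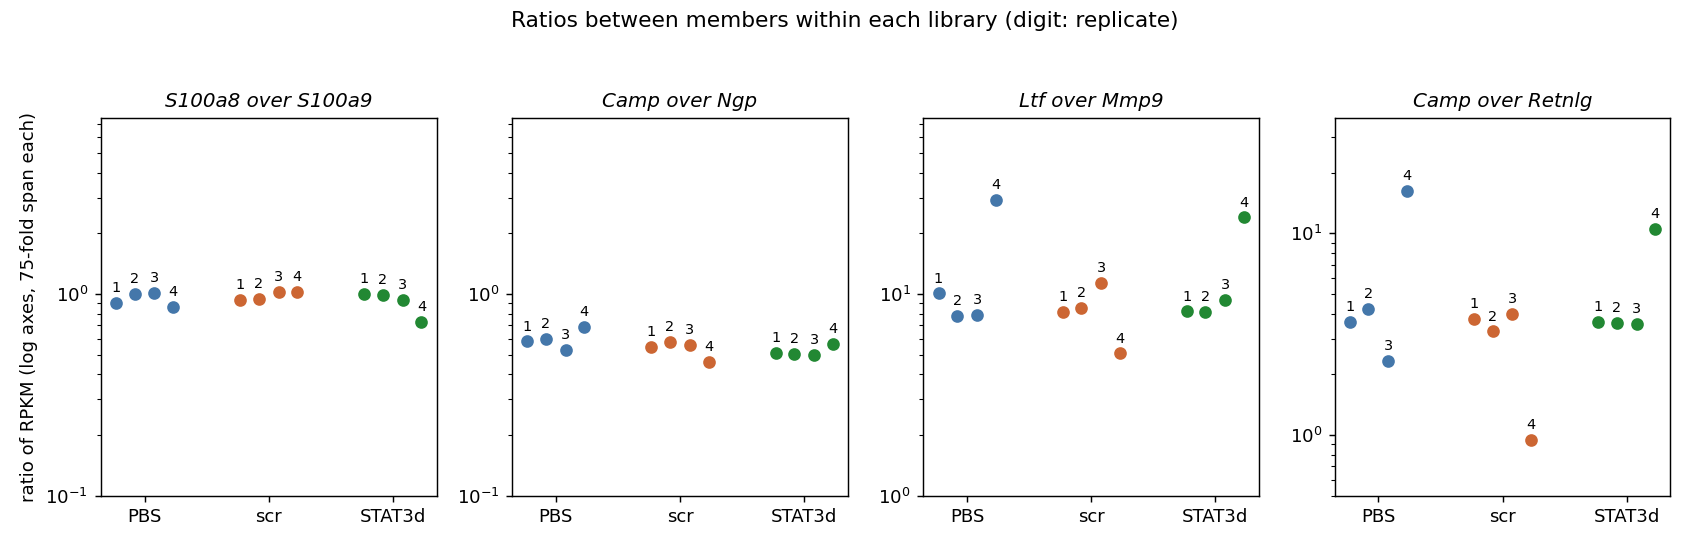
Ratios of RPKM between pairs of late neutrophil genes in each library (log axes of equal span), by labelled group, with replicate numbers. S100a8 over S100a9 and Camp over Ngp vary little, while the libraries numbered 4 stand apart for Ltf over Mmp9 and Camp over Retnlg.

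Genes of the most similar profile were sought over all tested genes by the root mean square (RMS) difference of log2 values over 12 libraries, each gene centred on its own mean. Camp and Ngp were closest to each other (0.136), and Ltf was next to Ngp (0.191). For S100a8 the nearest were Pglyrp1 (0.0967), a bactericidal protein of secondary granules, and Cd177 (0.102), a neutrophil surface protein. The same 2 genes were nearest to S100a9, at 0.133 and 0.135. Mmp9 and Retnlg were nearest to each other (0.245), Mmp8 was nearest to Lrg1 (0.222) and then Crispld2 (0.276), and Lcn2 to Cd177 (0.168) and Ifitm6 (0.169). Cxcr2 was nearest to Mrgpra2b (0.207) and to Fpr2 (0.209), a formyl peptide receptor. The median distance over all tested genes was 0.485 for Cxcr2 and 0.848 to 1.05 for the other 9. To the mean profile of the 10 genes, the 6 nearest were Lcn2, Cd177, S100a8, Pglyrp1, Ifitm6 and Itgb2l, at 0.078 to 0.180, and the points share libraries and depth.

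Other neutrophil genes were taken from lists of known markers. Of 13 other secondary granule genes, 3 were called lower in libraries labelled CpG-scrODN than in those labelled PBS. The median over the list was -0.85 on the log2 scale. Over all tested genes, 4.15% were called in either direction. Cybb, the catalytic chain of the phagocyte oxidase, fell by 1.55 (limma adjusted p = 0.00177), Fcnb, a ficolin, by 1.58 (0.0402) and Chil1, a chitinase-like protein, by 1.15 (0.0270). Replicate 4 labelled PBS, lowest of its group for all 10 late genes, was highest of it for Cybb (33.6 RPKM against 20.8 to 27.9). That library was lowest for Chil1 (3.50 RPKM) and between the others for Fcnb (12.6 against 11.7 to 24.9). The part of other cell types in these differences was not tested. Chil3 (271 against 383 RPKM), Lyz2 (139 against 254) and Cyba (101 against 145), the most abundant of the list, did not pass. Of 8 tested gelatinase granule and secretory vesicle genes, Slc11a1, a metal transporter, fell by 0.86 (0.00574) and Itgam, an integrin chain, by 0.97 (0.0477), with a list median of -0.46. On that list 2 differences were positive and not called, the larger that of Fcgr3 (0.92, limma adjusted p = 0.347). Over 23 tested mature neutrophil genes the list median was -0.71.

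Between libraries labelled CpG-STAT3dODN and PBS, 1 gene was called lower on each of the lists of secondary granule and gelatinase granule genes. Over all tested genes, 1.86% were called in either direction. Cybb fell by 1.10 (limma adjusted p = 0.0287) and Slc11a1 by 0.71 (0.0328). Between the 2 oligonucleotide groups neither list held a called gene. Each library was left out in turn, and those whose omission ended a call are given by label and number. For the comparison of CpG-STAT3dODN with PBS, these were PBS 2, 3 and 4 and CpG-STAT3dODN 1, 2 and 4 for Cybb. They were all libraries except PBS 3 and CpG-STAT3dODN 4 for Slc11a1. For the comparison of CpG-scrODN with PBS, they were PBS 1, PBS 2 and CpG-scrODN 3 for Chil1. They were all except CpG-scrODN 1 and CpG-STAT3dODN 2, 3 and 4 for Fcnb, and all except PBS 1, CpG-scrODN 1 and CpG-STAT3dODN 3 and 4 for Itgam. The calls of Cybb and Slc11a1 in that comparison held without each library in turn, with limma adjusted p-values of at most 0.00836 and 0.0236.

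**Figure D5:**
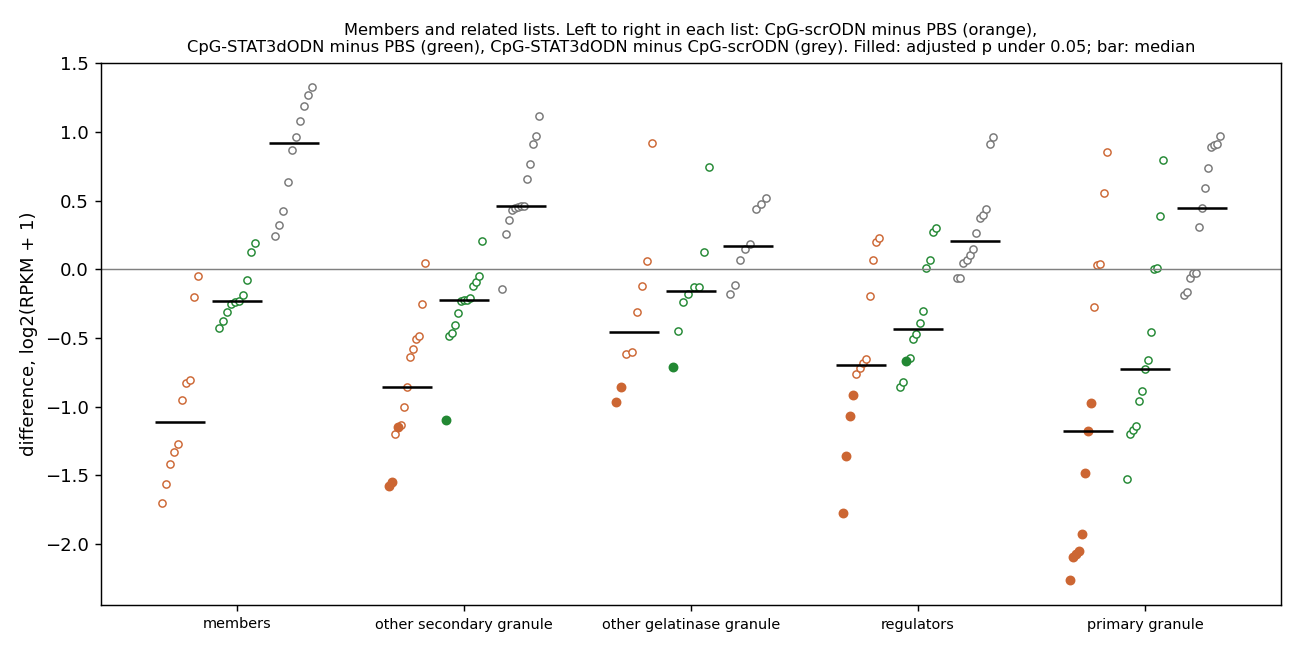
Differences between labelled groups on the log2(RPKM + 1) scale for the 10 late neutrophil genes and 4 lists of related genes, tested genes only. Each point is a gene, filled where the adjusted p was under 0.05, and bars are list medians; the 10 genes have medians of -1.11, -0.23 and 0.92 with no filled point.

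Of 12 regulators of granulopoiesis, 4 were called lower in libraries labelled CpG-scrODN than in those labelled PBS and none was called higher. Over all tested genes, 4.15% were called in either direction. Cebpe was at 4.59, 9.28, 7.98 and 5.26 RPKM in replicates 1 to 4 labelled PBS, 2.95, 2.66, 1.77 and 0.862 in those labelled CpG-scrODN and 3.50, 4.06, 7.99 and 4.30 in those labelled CpG-STAT3dODN. Its libraries labelled CpG-scrODN lay below all others, and it fell by 1.36 ± 0.29 (SE) on the log2 scale against PBS (limma adjusted p = 0.0189). That limma adjusted p was 0.0574 on leaving out replicate 2 of PBS, and 0.0659 and 0.0519 on leaving out replicates 3 and 4 of CpG-scrODN. The difference of Cebpe between CpG-STAT3dODN and CpG-scrODN, 0.97, was not called (0.960).

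Cebpd, another C/EBP factor, was at 2.87, 3.81, 2.64 and 4.04 RPKM in the PBS-labelled libraries, 1.31, 1.28, 0.914 and 0.767 in those labelled CpG-scrODN and 1.58, 1.68, 2.21 and 1.42 in those labelled CpG-STAT3dODN. It fell by 1.07 ± 0.14 (SE) between CpG-scrODN and PBS (limma adjusted p = 0.00113, at most 0.0066 on leaving out 1 library) and by 0.67 between CpG-STAT3dODN and PBS (0.0354). The second call was lost on leaving out any library except PBS 3, CpG-scrODN 4 and CpG-STAT3dODN 3 (limma adjusted p at most 0.116). Its libraries labelled PBS lay above all others. Gfi1 encodes a repressor needed for neutrophil formation and was at 1.23, 2.25, 2.22 and 2.02 RPKM in the PBS-labelled libraries, 0.926, 0.516, 0.313 and 0.455 in those labelled CpG-scrODN and 0.899, 0.903, 1.91 and 0.801 in those labelled CpG-STAT3dODN. It fell by 0.91 between CpG-scrODN and PBS (limma adjusted p = 0.0150, and 0.0625 without replicate 3 labelled CpG-scrODN). Cxcr4, the receptor that retains neutrophils in marrow and is also found on B cells, fell by 1.77 (0.0404). That call was lost on leaving out any library except PBS 1, PBS 3, CpG-scrODN 1, CpG-STAT3dODN 2 and CpG-STAT3dODN 4 (at most 0.126).

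The other 8 regulators did not pass in that comparison. Differences were -0.76 for Socs3, -0.72 for Cebpa, -0.68 for Csf3r (the G-CSF receptor), -0.65 for Cebpb, -0.20 for Spi1 (PU.1), 0.07 for Stat3, 0.20 for Runx1 and 0.23 for Klf5. Stat3 was at 43.2 ± 6.82 RPKM in the PBS-labelled libraries, 45.0 ± 1.56 labelled CpG-scrODN and 43.5 ± 6.78 labelled CpG-STAT3dODN (SD, n = 4 each).

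Of 13 tested genes on the primary granule list, 8 were called lower in libraries labelled CpG-scrODN than in those labelled PBS. The list is not limited to granule enzymes, and Ms4a3, Clec12a and Plac8 are among the called genes. Over all tested genes, 4.15% were called in either direction. None of the 13 was called higher, although 4 differences were positive, and the list median was -1.18. Mpo, myeloperoxidase, was at 93.8, 119, 95.8 and 91.6 RPKM in the PBS-labelled libraries, 30.0, 17.2, 17.4 and 30.0 in those labelled CpG-scrODN and 38.4, 29.6, 84.0 and 37.9 in those labelled CpG-STAT3dODN. Its groups labelled PBS and CpG-scrODN did not overlap, and it fell by 2.08 on the log2 scale (limma adjusted p = 0.00139). Elane, Prtn3 and Ctsg, which encode serine proteases of the same granules, fell by 1.93, 2.05 and 2.09. Plac8, at 420 RPKM in replicate 4 labelled PBS and 112 to 117 in the others of that group, fell by 2.26 (0.0118). Ms4a3, a membrane protein of granulocyte and monocyte progenitors, fell by 1.48 (0.00573). These 6 calls held without each library in turn, with limma adjusted p-values of at most 0.0496. Clec12a, an inhibitory lectin receptor of myeloid cells, fell by 1.18 (limma adjusted p = 0.0263), a call lost without PBS 2, PBS 3 or CpG-scrODN 2, 3 or 4 (at most 0.0997). Prss57, a serine protease, fell by 0.97 (0.0412), a call lost on leaving out any library except PBS 4, CpG-STAT3dODN 3 and CpG-STAT3dODN 4 (at most 0.138). Serpinb1a, an inhibitor of neutrophil serine proteases and the most abundant of the list, was at 195 ± 137 RPKM in libraries labelled CpG-scrODN and 111 ± 70.4 in those labelled PBS (SD, n = 4 each) and did not pass. None of the 13 was called between CpG-STAT3dODN and PBS, where 1.86% of tested genes were. At an unadjusted limma p under 0.05, 8 of the 13 were lower there, against 9.4% of tested genes in either direction. The list median in that comparison was -0.73. The mean difference of Mpo between CpG-scrODN and PBS was larger than that of each of the 10 late genes and its residual SD smaller, and whether the lists differ in response was not tested.

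Markers of other spleen cells moved with the labelled groups. All 10 tested B-cell markers were called lower in libraries labelled CpG-scrODN than in those labelled PBS, and 8 were called lower in those labelled CpG-STAT3dODN. Their sum, over 11 markers found, was 176 to 679 RPKM in the PBS-labelled libraries, 9.78 to 26.0 labelled CpG-scrODN and 23.7 to 111 labelled CpG-STAT3dODN. All 3 tested T-cell markers were lower in both comparisons, with sums over 7 of 16.0 to 55.5, 2.30 to 4.53 and 2.53 to 5.41 RPKM. Of 9 tested monocyte markers, 3 and 2 were called lower, with sums over 10 of 198 to 346, 80.0 to 117 and 89.2 to 178 RPKM. Over all tested genes, 4.15% and 1.86% were called in these comparisons with PBS.

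Erythroid (9 tested) and eosinophil (4 tested) markers and the check of immature leukaemia cells (6 tested) held no called gene in any comparison. Of 16 immediate-early genes 1 was called, Nr4a1, lower in libraries labelled CpG-STAT3dODN than in those labelled PBS. Over all tested genes, 4.15% were called between CpG-scrODN and PBS, 1.86% between CpG-STAT3dODN and PBS and 0% between the 2 oligonucleotide groups. Erythroid sums ran from 327 to 9566 RPKM in the PBS-labelled libraries, 611 to 1501 labelled CpG-scrODN and 323 to 4142 labelled CpG-STAT3dODN, and eosinophil sums from 26.5 to 53.9, 42.6 to 64.5 and 27.8 to 71.9. Immediate-early sums ran from 401 to 6008, 2593 to 4241 and 403 to 2637 RPKM. No listed marker was at 0 in all libraries. The part of these cells, and of neutrophils of the host, in the levels of the 10 genes was not tested.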

How the data were processed

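The authors deposited RPKM values for 24310 features in each of 12 libraries, per the file headers. The submitters' processing notes name TopHat 1.3.1, Partek 6.12.0713 and the build mm10; the roles of the tools, the annotation and the filters were not given in the sources used. Groups came from the sample labels, 4 libraries each, although the headers name other groups. RPKM were used as deposited. Depth was estimated from the RPKM that 1 read is worth; 62.5% to 68.2% of low values came out whole within 0.05 of a read, too few for a count test.

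The 10886 genes that reached an RPKM of 1 in 4 or more of the 12 libraries were tested on log2(RPKM + 1), which shrinks changes of low genes, in 1 model over all 12 libraries (limma 3.58.1, R 4.3.3, moderated variances with an intensity trend, two-sided, Benjamini-Hochberg adjustment within each comparison, threshold 0.05). All 10 late neutrophil genes passed this filter. Intervals are 95% intervals of that model, unadjusted. The model was tested on simulated data. Within-group pairs of libraries had a chi-square of estimated reads per degree of freedom of 14.0 to 300, so none was counted as a repeat.

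The 10 genes and the 12 related or marker lists were chosen with earlier results of these data known. All 10 genes and all regulators were named, with the called and some of the most abundant genes of the granule lists. Markers of other cells are given as counts and sums, although the rule for named genes covers them; calls on the list of other mature neutrophil genes are not reported here. B-cell markers found were 11 of 13, erythroid 9 of 10 and other mature neutrophil genes 29 of 30; Ly6g was not analysed here. In 27 features the symbol had become a date, and none is named. Promoter sequences and gene positions came from RefSeq tables. Alternatives were another pseudocount (0.1), other filters (none, or RPKM of 5), quantile and size factor scaling, fits of 2 groups, a replicate block, library weights, and leaving out libraries.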

Additional observations from a re-analysis of the deposited data

Results flagged for a closer look

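S100a9 stood out in replicate 3 labelled CpG-STAT3dODN, at 1650.4 RPKM against 792 to 882 RPKM in the other 3 libraries of that group. On the log2(RPKM + 1) scale, the gap to the nearest of them was 0.855 of the range of the group. That is above the 95% critical value of Dixon's test for 4 values. The group was 1 of 30 groups of values tested (10 genes in 3 labelled groups), where chance alone gives about 1 in 20. The same library was the highest of its group for all 10 genes.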

How the results depend on the processing

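No late neutrophil gene was called in any comparison under any alternative run, except Retnlg between CpG-scrODN and PBS without both libraries of low Fos (1 of 10). Cxcr2 could not be tested with the filter at an RPKM of 5. Between CpG-scrODN and PBS, 452 genes were called, but 163 with the filter at 5, 1756 with library quality weights (698 higher, 1058 lower), 686 without both libraries of low Fos and 279 to 560 on leaving out 1 library. Of these weighted calls and those without low Fos (111 higher, 575 lower), a larger share was higher than in the main count (12 higher, 440 lower); with quantile scaling 75 were higher and 318 lower. Between CpG-STAT3dODN and PBS, 202 became 76 with the filter at 5, 78 with the 2 groups alone, 840 with weights, 337 without both libraries of low Fos, 392 without all 3 libraries numbered 4 and 121 to 218 on leaving out 1 library. Between CpG-STAT3dODN and CpG-scrODN, 0 became 1 with the 2 groups alone and 129 with weights, and stayed 0 on leaving out 1 library. The causes were not tested.

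Uncalled differences changed sign as follows. Mmp8 between CpG-scrODN and PBS was 0.028 with quantile scaling and 0.0192 with size factors. On leaving out 1 library, it ran from -0.50 to 0.27, from -0.26 to 0.69 between CpG-STAT3dODN and PBS, and from -0.0259 to 0.74 between CpG-STAT3dODN and CpG-scrODN. Between CpG-STAT3dODN and PBS, Ltf ran from -0.57 to 0.0222, Lcn2 from -0.50 to 0.22, Ngp from -0.47 to 0.0234, Mmp9 from -0.83 to 0.27, Retnlg from -1.08 to 0.0374 and Cxcr2 from -0.15 to 0.35. For single genes named in the text, a call was lost in 114 and gained in 7 combinations of gene, comparison and alternative, 1272 were unchanged in direction and call, and 22 changed sign. Other than on leaving out 1 library, calls between CpG-scrODN and PBS were lost in 8 alternatives each for Fcnb and Itgam. Losses were 4 for Cxcr4, 3 each for Chil1 and Prss57 and 1 each for Clec12a and Gfi1. Between CpG-STAT3dODN and PBS, losses were 7 for Cebpd, 6 for Cybb and 4 for Slc11a1.

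The labels do not say whether replicate numbers pair the samples, and the pairs did not all correlate: 5 of 12 same-numbered pairs did so above 0.1, among them all 3 pairs numbered 4, and 3 of 12 libraries correlated best with one of their own number. With the replicate block, 523, 213 and 0 genes and 0 late neutrophil genes were called in the 3 comparisons, and limma adjusted p-values between CpG-scrODN and PBS were 0.068 for Ltf, 0.0795 for Ngp and 0.0841 for Camp. With 4 libraries a group and residual SDs of 0.50 to 1.08, intervals of these genes spanned 1.39 to 2.94 log2 units.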
